A study of Mus musculus with 12 samples.

Results

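The mitochondrially encoded genes are the genes carried by the small circular chromosome of the mitochondrion. They were taken as all genes of the deposited table whose symbol begins with "mt-". The rule found 37 of 55891 genes: 13 protein-coding genes, 2 ribosomal RNA (rRNA) genes and 22 transfer RNA (tRNA) genes. The rule used names and no measured values.

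Messenger RNA was sequenced from mucosa scraped off the ileum, the last stretch of the small intestine, of 12 mice, each giving 1 library. Of these, 6 were labelled ERBB3-dIE and 6 Erbb3-FF, after Erbb3, a receptor tyrosine kinase gene of the ErbB family. Litter B held 3 ERBB3-dIE mice (1 to 3) and 2 Erbb3-FF mice (1 and 2). Litter A held 3 ERBB3-dIE mice (4 to 6) and 4 Erbb3-FF mice (3 to 6). The series text describes the mice as untreated at baseline. The labels do not say what the dIE and FF alleles are, which Cre driver was used, or the strain and age of the mice.

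Mitochondrial DNA is transcribed from both strands as long precursors, from which the tRNAs that punctuate the genome are cut out, releasing rRNAs and messenger RNAs between them. The rRNAs build the mitochondrial ribosome, which makes only the proteins encoded by this genome. These proteins are core subunits of respiratory chain complexes I, III and IV and of the ATP synthase, whose other subunits are nuclear products. In the ileum, absorptive enterocytes are known for many mitochondria and for drawing on oxidative metabolism for active transport.

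In the reference annotation at hand (GENCODE M21, GRCm38; the deposited table was made on GRCm39), 12 of the 13 protein genes, both rRNA genes and 14 of the 22 tRNA genes lie on the plus strand of chromosome M. The minus strand carries mt-Nd6 and 8 tRNA genes. The end of mt-Atp8 overlaps the start of mt-Atp6 by 43 bases, and that of mt-Nd4l overlaps mt-Nd4 by 7 bases. Each overlap is shorter than the 75-base read, so a full read there also covers bases outside the overlap. The whole of mt-Atp8 is shown because it had the highest value of all genes in every library and is the shortest protein gene, with 204 bases at chrM:7766-7969 on the plus strand. Capitals mark the bases it shares with mt-Atp6.
mt-Atp8: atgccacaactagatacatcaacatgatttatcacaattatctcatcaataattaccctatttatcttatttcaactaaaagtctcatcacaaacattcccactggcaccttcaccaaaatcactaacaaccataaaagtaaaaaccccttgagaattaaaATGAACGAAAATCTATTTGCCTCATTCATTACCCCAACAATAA

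A second feature of these sequences bears on the values of 7 genes. On GRCm38 chromosome 1, a stretch of 4663 bases on the minus strand (chr1:24611535-24616197) holds 7 annotated pseudogenes that are near-identical to 7 mitochondrial genes, with at least 99% identity over at least 90% of the pseudogene. The pseudogenes are Gm29216 (copy of the last 483 bases of mt-Co1), Gm28661 (mt-Co2), Gm10925 (mt-Atp6), Gm28437 (mt-Co3), Gm28438 (mt-Nd3), Gm10222 (mt-Nd4l) and Gm28439 (the first 876 bases of mt-Nd4). In the aligned stretch 5 of the 7 matched the mitochondrial gene exactly, and Gm28438 and Gm29216 differed from it at 1 base each. The windows of 75 bases around these bases are shown, since 75 bases is the read length and a read within the shared stretch that misses these bases has none to tell gene from copy. Capitals mark the differing base. Counted from 1 at the 5′ end of the mitochondrial gene, the copy differs by T3C in mt-Nd3 (chrM:9459-9533, plus strand, against chr1:24613045-24613119, minus strand) and by A1066T in mt-Co1 (chrM:6390-6464, plus strand, against chr1:24616114-24616188, minus strand).
mt-Nd3: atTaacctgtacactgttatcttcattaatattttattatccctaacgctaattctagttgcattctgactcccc
Gm28438: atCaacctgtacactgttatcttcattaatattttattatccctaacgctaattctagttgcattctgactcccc
mt-Co1: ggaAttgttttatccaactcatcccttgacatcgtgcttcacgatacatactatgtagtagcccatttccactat
Gm29216: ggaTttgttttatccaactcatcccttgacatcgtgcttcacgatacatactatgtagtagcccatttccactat

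Values are TPM, in which a gene's estimated reads are divided by a length set for that gene and by the library total. Each library thus sums to 1000000, and read depth is not known. Differences are log2(TPM + 0.5) from limma, with litter and genotype as terms and p-values adjusted over 12605 tested genes. The 8 markers of ileum and epithelium (Fabp6, Slc10a2, Vil1, Epcam, Cdx2, Krt20, Krt8 and Cdh1) all passed the filter of 1 TPM in 6 libraries, and summed to 12129 to 54279 TPM. The cytosolic ribosomal sequence genes Mir6236 and Rn18s-rs5 took 10.2% and 10.8% of the TPM in Erbb3-FF mice 5 and 6, and 0.591% to 1.62% in the other 10 libraries. Erbb3-FF mouse 3, labelled litter A, lay with litter B in several measures. Its ileum and epithelium markers summed to 54279 TPM, against 32798 to 44062 TPM in litter B and 12129 to 17170 TPM in the other 6 mice of litter A. It was grouped as labelled, and fitted results by litter are given with and without it.

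All 22 tRNA genes were listed at 0 TPM in all 12 libraries. They are 59 to 75 bases long in the reference, and 21 of them are shorter than the 75-base read. The libraries were made with an mRNA kit, so these zeros are no measure of tRNA in the tissue. The 13 protein genes and both rRNA genes passed the filter, so 15 of the 37 genes were tested.

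The 15 detected genes took 7.94% to 22.1% of a library's TPM, and 2.90% to 6.85% without mt-Atp8. Protein genes took 7.73%, 15.7% and 22.0% (lowest, median and highest) in ERBB3-dIE mice, against 11.9%, 13.3% and 19.7% in Erbb3-FF mice. The rRNA genes took 0.0946%, 0.159% and 0.248% in ERBB3-dIE mice, against 0.165%, 0.289% and 0.372% in Erbb3-FF mice. For protein genes the Erbb3-FF range lay within the ERBB3-dIE range, and for rRNA genes the ranges overlapped in part. By litter, the 15 genes took a median of 12.2% in litter B and 16.9% in litter A, or 4.19% and 4.78% without mt-Atp8. With the 7 copies added, the share was 13.5% to 31.6%.

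**Figure D1:**
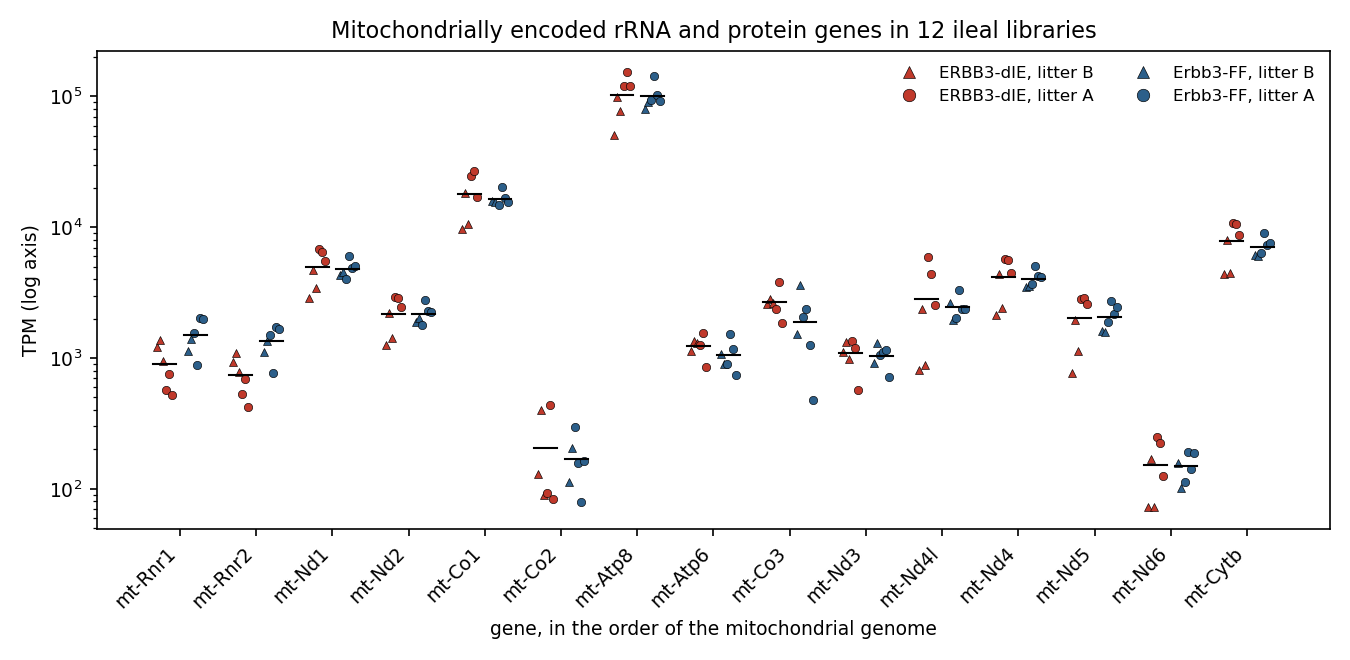
TPM of the 15 detected genes on a log axis, in genome order, with ERBB3-dIE mice (red) left of Erbb3-FF mice (blue), triangles for litter B, circles for litter A and bars for the mean of 6 mice. The rRNA genes have lower means in ERBB3-dIE mice with ranges that overlap, mt-Atp8 is the highest in each genotype, and mt-Co2 and mt-Nd6 are the lowest.

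Levels in TPM differed widely between the genes. mt-Atp8, which encodes a small subunit of the ATP synthase membrane part, ranked 1 among all genes in every library, with 50387, 109525 and 152599 TPM in ERBB3-dIE mice and 79816, 93129.6 and 142894 TPM in Erbb3-FF mice (lowest, median and highest). It made up 63.4% to 71.8% of the mitochondrial TPM. After it came mt-Co1 (mean over 12 libraries 17170.4 TPM), mt-Cytb (7438), mt-Nd1 (4874) and mt-Nd4 (4080.1). At the low end were mt-Co2 (188) and mt-Nd6 (150.3), whose ranges of 79.4 to 439.5 TPM and 72.0 to 249.9 TPM overlapped. The neighbours mt-Nd1 and mt-Nd4 overlapped as well, and so did mt-Rnr1 (1194), mt-Atp6 (1148), mt-Nd3 (1066) and mt-Rnr2 (1047).

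The rank of mt-Atp8 did not hold on another scale. In the authors' deposited table, which also gives each gene's mean normalized count (baseMean), mt-Atp8 held 2.03% of the summed baseMean of the mitochondrial genes and mt-Co1 held 47.0%. Per kilobase of gene, the baseMean of the authors' deposited table put mt-Co1 at rank 1 of the 15, mt-Cytb at rank 2 and mt-Atp8 at rank 3. In the authors' deposited table, baseMean per TPM per kilobase was 8.61 to 9.97 for genes of at least 900 bases. It was lower in short genes of the authors' deposited table: 3.45 for mt-Nd3, 1.94 for mt-Nd4l and 0.533 for mt-Atp8. Shares of TPM thus weight short genes more than shares of counts do, and by more than their length in bases accounts for. In the authors' deposited table all mitochondrial genes together held 4.81% of the baseMean of all genes.

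Between genotypes, mt-Rnr2 was lower in ERBB3-dIE mice, and neither mt-Rnr1 nor any protein gene passed the test. As with the tRNAs, rRNA values from an mRNA kit may not measure the level of rRNA in the tissue. mt-Rnr2 (ENSMUSG00000064339), the 16S rRNA of the large mitochondrial ribosomal subunit, fell to 741 ± 249 TPM in ERBB3-dIE mice, against 1352 ± 363 TPM in Erbb3-FF mice (SD, n = 6 each). In litter B it had 928, 1095 and 786 TPM in ERBB3-dIE mice 1 to 3, against 1113 and 1339 TPM in Erbb3-FF mice 1 and 2. In litter A it had 529, 686 and 423 TPM in ERBB3-dIE mice 4 to 6, against 1499, 768, 1716 and 1679 TPM in Erbb3-FF mice 3 to 6. Within each litter every ERBB3-dIE value was below every Erbb3-FF value. Ranges set apart in this way in both litters were found in 4.75% of all tested genes. Over both litters together the ranges overlapped, as Erbb3-FF mouse 4 was below 3 ERBB3-dIE mice of litter B. Of all tested genes 2.44% had ranges apart between the genotypes over both litters, and of the 15 mitochondrial genes none did. The log2 difference was −0.95 (SE 0.25, 95% interval −1.49 to −0.41, limma adjusted p = 0.0489). It was the single mitochondrial gene called of 15, and 3.7% of all tested genes were called lower and 1.66% higher in ERBB3-dIE mice (5.36% in either direction).

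mt-Rnr1 (ENSMUSG00000064337), the 12S rRNA of the small subunit, was at 898 ± 348 TPM in ERBB3-dIE mice and 1489 ± 453 TPM in Erbb3-FF mice (SD, n = 6 each). In litter B it had 1214, 1383 and 949.6 TPM in ERBB3-dIE mice, against 1129 and 1396 TPM in Erbb3-FF mice. In litter A it had 570.3, 752 and 522 TPM in ERBB3-dIE mice, against 1541, 879, 2008 and 1984 TPM in Erbb3-FF mice. The genotypes overlapped in litter B and not in litter A. The log2 difference of −0.82 (SE 0.27, 95% interval −1.42 to −0.23) did not pass limma (adjusted p = 0.102). The authors' deposited table lists −0.92 for mt-Rnr2 (adjusted p = 0.00739) and −0.79 for mt-Rnr1 (adjusted p = 0.0490), in a test that called 12.6% of genes in either direction and 7.51% lower.

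Erbb3-FF mice 5 and 6, which had the most cytosolic ribosomal sequence, also had the highest values of both mitochondrial rRNAs. Without these libraries the log2 difference was −0.70 for mt-Rnr2 (limma adjusted p = 0.122) and −0.52 for mt-Rnr1 (adjusted p = 0.230). The part of ribosomal sequence content in the difference was not tested. The mt-Rnr2 call was kept in 2 of the 12 fits without 1 library, those without ERBB3-dIE mouse 2 or Erbb3-FF mouse 4. In the other 10 its adjusted p was 0.0531 to 0.116, with log2 differences of −1.09 to −0.80 over all 12. Without Erbb3-FF mouse 3 it was −0.89 (limma adjusted p = 0.0770). Within litter B alone the log2 difference of mt-Rnr2 was −0.40 (limma adjusted p = 0.452), and within litter A alone −1.33 (adjusted p = 0.148), or −1.28 (adjusted p = 0.168) without Erbb3-FF mouse 3.

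**Figure D2:**
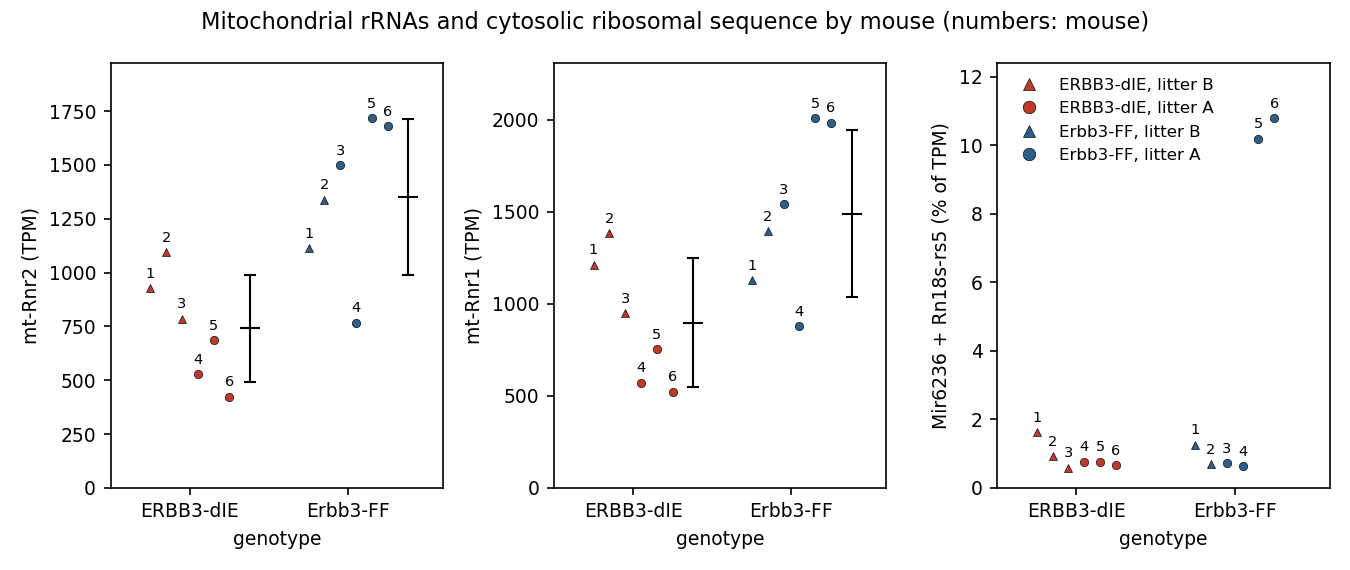
TPM of mt-Rnr2 (left) and mt-Rnr1 (middle), and percent of TPM in the cytosolic ribosomal sequence genes Mir6236 and Rn18s-rs5 (right), for each numbered mouse, with ERBB3-dIE (red) left of Erbb3-FF (blue), triangles for litter B, circles for litter A and bars for the mean and SD of 6 mice in the first 2 panels. ERBB3-dIE mice lie at 423 to 1095 TPM and Erbb3-FF mice at 768 to 1716 TPM of mt-Rnr2, and Erbb3-FF mice 5 and 6 stand highest in all 3 panels.

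Markers of epithelial cell types also differed between the genotypes. Markers of goblet cells, the mucus-secreting cells, summed to 34861 to 70709 TPM in ERBB3-dIE mice and 19987 to 33083 TPM in Erbb3-FF mice without overlap, and 5 of 10 tested rose. Of 14 tested absorptive enterocyte markers 6 fell, and the list summed to 4821 to 19640 TPM in ERBB3-dIE mice against 10787 to 26806 TPM in Erbb3-FF mice. In bulk tissue fewer cells of a type and less RNA per cell cannot be told apart, and the part of these lists in the rRNA difference was not tested.

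Of the 13 protein genes none was called between genotypes, against 5.36% of all tested genes. Their log2 differences had a median of 0.05, beside −0.00 over all tested genes, of which 50.1% were negative. Of the 13, 12 were positive, but 7 were after scaling without the cytosolic ribosomal sequence, 8 after quantile normalization and 13 under the other 3 scalings. Complex I, the entry point of electrons from NADH, has 7 subunits encoded here. mt-Nd1, which lies near the site where quinone binds, had 2859, 5083 and 6794 TPM (lowest, median and highest) in ERBB3-dIE mice against 3987, 4688 and 6013 TPM in Erbb3-FF mice, a log2 difference of 0.08 (95% interval −0.29 to 0.46). mt-Nd2, mt-Nd4 and mt-Nd5, which encode membrane subunits related to ion antiporters, differed by 0.04 (−0.34 to 0.42), 0.05 (−0.38 to 0.47) and −0.01 (−0.48 to 0.46). Their medians were 2319.6, 4448 and 2284 TPM in ERBB3-dIE mice, beside 2151, 3936 and 2032 TPM in Erbb3-FF mice. In this fit each of these 4 intervals leaves out a change of 0.5 on the log2 scale in either direction. That bound depends on the scaling: with quantile normalization mt-Nd4 was −0.19 (SE 0.18), which does not leave out a fall of 0.5.

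Of the smaller complex I subunits, mt-Nd3 was bounded about as closely as mt-Nd5, and mt-Nd4l and mt-Nd6 less closely. mt-Nd3 had 568, 1157 and 1350.2 TPM in ERBB3-dIE mice against 713, 1086 and 1296 TPM in Erbb3-FF mice (log2 difference 0.01, 95% interval −0.47 to 0.48). mt-Nd4l had 807, 2451 and 5891 TPM in ERBB3-dIE mice against 1938, 2363 and 3331 TPM in Erbb3-FF mice (0.04, −0.78 to 0.85). For mt-Nd4l the Erbb3-FF mice lay within the range of the ERBB3-dIE mice. mt-Nd6, the one protein gene of the minus strand, had 72.0, 147 and 249.9 TPM in ERBB3-dIE mice against 102, 151 and 190.3 TPM in Erbb3-FF mice (0.02, −0.59 to 0.62).

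mt-Cytb, the cytochrome b of complex III, had 4378, 8332 and 10729.9 TPM in ERBB3-dIE mice against 6059, 6811 and 9013 TPM in Erbb3-FF mice (log2 difference 0.17, 95% interval −0.24 to 0.57). Complex IV, which passes electrons to oxygen, has mt-Co1, mt-Co2 and mt-Co3 as its core. mt-Co1 had 9627, 17654 and 26962 TPM in ERBB3-dIE mice against 14892, 15745 and 20268 TPM in Erbb3-FF mice (0.10, −0.38 to 0.59). mt-Co3 had 1866, 2628 and 3795 TPM in ERBB3-dIE mice against 476, 1790.1 and 3598 TPM in Erbb3-FF mice. It had the largest log2 difference of the 13, 0.65 (95% interval −0.21 to 1.51, limma adjusted p = 0.368), and Erbb3-FF mouse 6 was its lowest library. Without that mouse the difference was 0.36, and over all 12 fits without 1 library it was 0.36 to 0.92. mt-Co2 was at 111 TPM in the median ERBB3-dIE mouse and 159 TPM in the median Erbb3-FF mouse (0.03, −1.07 to 1.12). Of the ATP synthase genes, mt-Atp8 differed by 0.08 (−0.44 to 0.60) and mt-Atp6, part of the proton channel, by 0.26 (−0.16 to 0.67).

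**Figure D3:**
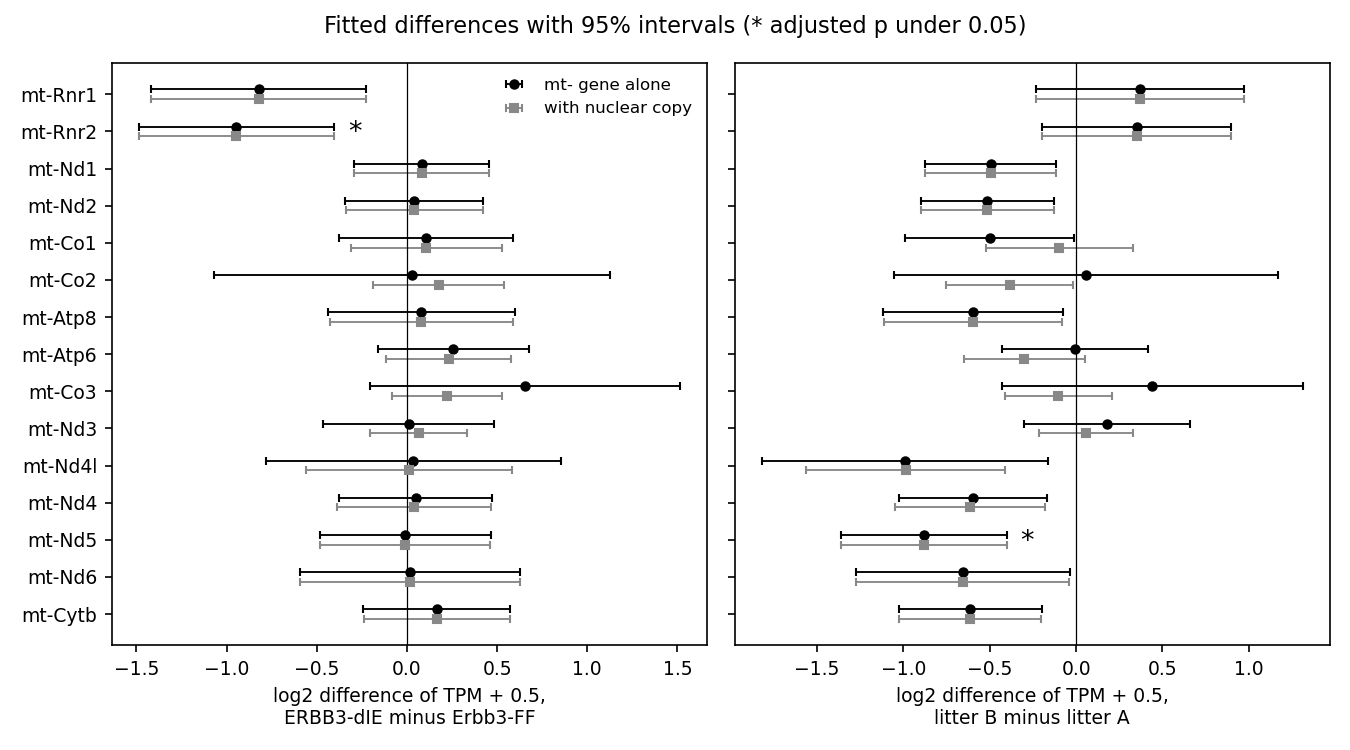
Log2 differences with 95% intervals for the 15 detected genes, ERBB3-dIE minus Erbb3-FF (left) and litter B minus litter A (right), for the mitochondrial gene alone (black) and from the fit in which 7 genes were summed with their nuclear copies (grey); asterisks mark calls of the gene alone. mt-Rnr2 is called at left (−0.95) and mt-Nd5 at right (−0.88), and the intervals of mt-Co2 and mt-Co3 narrow when the copy is added.

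The genotype difference of most protein genes had unlike signs in the litters. Fitted within litter B, 9 of the 13 were negative with a median of −0.29, and within litter A 11 were positive with a median of 0.30. mt-Nd4l differed by −0.92 in litter B and 0.71 in litter A, and mt-Co1 by −0.35 and 0.42. No protein gene was called within a litter, where 0.119% of all tested genes were called in litter B and 0.0476% in litter A. Without Erbb3-FF mouse 3, the protein genes in litter A had a median of 0.23 with mt-Nd4l at 0.61 and mt-Co1 at 0.37, and 0.309% of all tested genes were called, none of them mitochondrial. The difference itself was tested as an interaction of litter and genotype: 0 of 12605 genes were called by limma, while 1174 genes (9.31%) had an unadjusted p under 0.05. The median interaction over all genes was −0.15, and 0.01 with median-of-ratios scaling. The interaction of mt-Nd4l was −1.63 (SE 0.61, adjusted p = 0.431), that of mt-Rnr1 1.22 (SE 0.43, adjusted p = 0.408) and that of mt-Rnr2 0.94 (SE 0.44, adjusted p = 0.548). Without Erbb3-FF mouse 3, limma called 36 genes (0.286%), none of them mitochondrial, and these 3 interactions were −1.53, 1.22 and 0.89 (adjusted p = 0.484, 0.428 and 0.608). Without Erbb3-FF mouse 2 it called 23 genes.

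Between litters, 1 of the 15 mitochondrial genes was called, mt-Nd5, which was lower in litter B. mt-Nd5 (ENSMUSG00000064367) had 774, 1962 and 1135 TPM in ERBB3-dIE mice and 1605 and 1593 TPM in Erbb3-FF mice of litter B. In litter A it had 2836, 2866 and 2605 TPM in ERBB3-dIE mice and 1879.9, 2739, 2184 and 2438 TPM in Erbb3-FF mice 3 to 6. The litters overlapped through 1 mouse each, ERBB3-dIE mouse 2 of litter B (1962 TPM) and Erbb3-FF mouse 3 of litter A (1879.9 TPM). The log2 difference was −0.88 (SE 0.22, 95% interval −1.36 to −0.40, limma adjusted p = 0.0365). Between litters 8.55% of all tested genes were called, 7.16% higher and 1.4% lower in litter B.

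Of the 13 protein genes 10 had a negative litter difference (10 or 11 under the 5 other scalings), beside 44.4% of all tested genes, with a median of −0.51 beside 0.05 over all tested genes. After mt-Nd5 the differences were −0.99 for mt-Nd4l, −0.66 for mt-Nd6, −0.61 for mt-Cytb, −0.60 for mt-Nd4, −0.60 for mt-Atp8, −0.51 for mt-Nd2, −0.50 for mt-Co1 and −0.50 for mt-Nd1, with limma adjusted p-values of 0.0648 to 0.162. Including mt-Nd5, 9 of the 15 mitochondrial genes had an unadjusted p under 0.05, all lower in litter B, beside 29.4% of all tested genes in either direction and 9.64% lower in litter B. mt-Cytb averaged 5792 ± 1469.9 TPM in litter B (SD, n = 5) and 8614 ± 1660.4 TPM in litter A (SD, n = 7). The positive ones were mt-Co3 (0.44), mt-Nd3 (0.18) and mt-Co2 (0.06), and mt-Atp6 stood at −0.01. All 4 of these genes have a nuclear copy that received most of their TPM, as described below. The same holds for mt-Nd4l, at −0.99. The rRNA genes differed the other way, by 0.37 for mt-Rnr1 and 0.35 for mt-Rnr2, with adjusted p-values of 0.392 and 0.367.

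Without Erbb3-FF mouse 3, limma called 5 mitochondrial genes lower in litter B: mt-Nd5 (−0.94), mt-Cytb (−0.67), mt-Nd4 (−0.64), mt-Nd2 (−0.58) and mt-Nd1 (−0.56), with adjusted p-values of 0.0112 to 0.0359. The same fit called 24.3% of all tested genes, 3059 against 1078 with all libraries, and 8.54% lower in litter B. In the other 11 fits without 1 library mt-Nd5 was called once, without ERBB3-dIE mouse 2 (adjusted p = 0.0452). Its adjusted p was 0.0561 to 0.0876 in the rest. Absorptive enterocyte markers, of which 9 of 14 were called higher in litter B, summed to 12765 to 22135 TPM in litter B and 4821 to 26806 TPM in litter A, where 26806 TPM was Erbb3-FF mouse 3 and the next highest 12208 TPM. Their part in the litter difference was not tested.

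The 7 mitochondrial genes with a near-identical nuclear copy shared their TPM with it unevenly. Of the summed TPM of gene and copy, the copy of mt-Co2 was given 98.0% to 99.6%, that of mt-Atp6 92.8% to 96.3% and that of mt-Co3 78.4% to 96.5% over the 12 libraries. The copies of mt-Nd3 and mt-Nd4l were given 73.9% to 87.9% and 59.2% to 80.3%. The copy of mt-Co1, which matches less than the whole gene, was given 21.8% to 53.0%, and that of mt-Nd4 0% to 4.44%. Both of these copies are shorter than their genes, so these shares of TPM are not shares of reads. Reads that match gene and copy equally cannot be told apart, so the low level of mt-Co2 is that of its share of such reads. Summed with Gm28661, mt-Co2 stood at 19084 ± 5252 TPM in ERBB3-dIE mice and 17147 ± 1939.9 TPM in Erbb3-FF mice (SD, n = 6 each). These means lay near those of mt-Co1 alone, and below those of mt-Co1 with Gm29216 (27501 and 25200 TPM).

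Summing gene and copy left the genotype calls as they were and narrowed the intervals of 6 of the 7 genes, the exception being mt-Nd4. mt-Co3 with Gm28437 had 13850.3, 17159 and 21739 TPM in ERBB3-dIE mice against 13571, 14818 and 17286 TPM in Erbb3-FF mice, and the log2 difference was 0.22 (95% interval −0.08 to 0.53), against 0.65 for mt-Co3 alone. For mt-Co2 the summed difference was 0.18 (−0.19 to 0.54), for mt-Atp6 0.23 (−0.11 to 0.58) and for mt-Co1 0.11 (−0.31 to 0.53). Between litters, mt-Co3 and mt-Co2 turned to −0.10 and −0.38 and mt-Atp6 stood at −0.30, while mt-Nd3 stayed positive at 0.06. mt-Nd4l with Gm10222 was called lower in litter B (−0.99, SE 0.26, limma adjusted p = 0.0435), at 6225 ± 2296 TPM in litter B (SD, n = 5) and 11808 ± 2482 TPM in litter A (SD, n = 7). Without Erbb3-FF mouse 3 the summed differences were −1.07 for mt-Nd4l (limma adjusted p = 0.0135), −0.41 for mt-Co2, −0.33 for mt-Atp6 and −0.11 for mt-Co3, the last 3 with adjusted p-values of 0.0937 to 0.583. The sums were added after the data were seen.

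**Figure D4:**
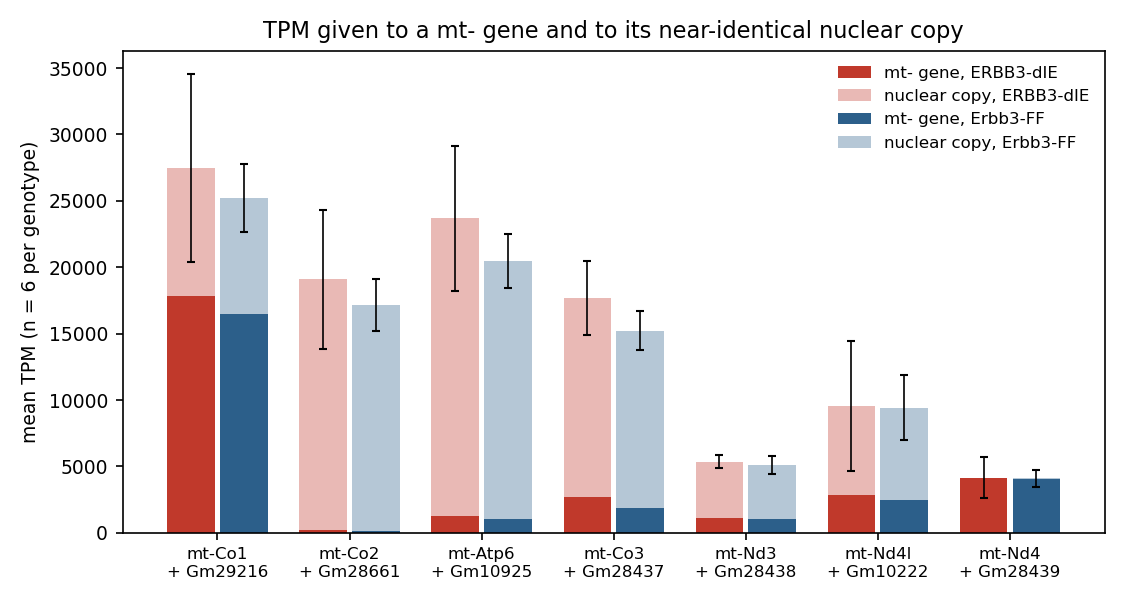
Mean TPM of 6 mice given to a mitochondrial gene (dark) and to its near-identical nuclear copy (pale), stacked, with ERBB3-dIE (red) left of Erbb3-FF (blue) and error bars for the SD of the sum. The copies hold most of the TPM of mt-Co2, mt-Atp6, mt-Co3, mt-Nd3 and mt-Nd4l, and nearly none of that of mt-Nd4.

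The ratio of Gm29216 to mt-Co1 set the mice apart by litter, with 1 exception. In litter B it was 1.13, 0.851 and 0.814 in ERBB3-dIE mice 1 to 3, against 0.728 and 0.728 in Erbb3-FF mice 1 and 2. In litter A it was 0.279, 0.331 and 0.411 in ERBB3-dIE mice 4 to 6, against 0.727, 0.336, 0.350 and 0.380 in Erbb3-FF mice 3 to 6. Erbb3-FF mouse 3 of litter A stood beside Erbb3-FF mice 1 and 2 of litter B, and the other 6 mice of litter A lay at 0.411 or below. The ratio was examined after the data were seen and was not tested. Gm29216 and mt-Co1 differ by A1066T in the stretch shown above, and the base read in each mouse is not in TPM values. The sum of mt-Co1 and Gm29216 was 25592 ± 5819 TPM in litter B (SD, n = 5) and 26892 ± 5149.8 TPM in litter A (SD, n = 7), a log2 difference of −0.10 (95% interval −0.52 to 0.33), against −0.50 for mt-Co1 alone. Without Erbb3-FF mouse 3 the summed difference was −0.098. In the reference Gm29216 has 492 bases and mt-Co1 1545. In the authors' deposited table, baseMean per TPM was 2.92 for Gm29216 and 14.9 for mt-Co1. A read thus adds more TPM when given to the copy than when given to the gene. The sum changes when reads move between them, so its litter difference is not one of summed counts.

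**Figure D5:**
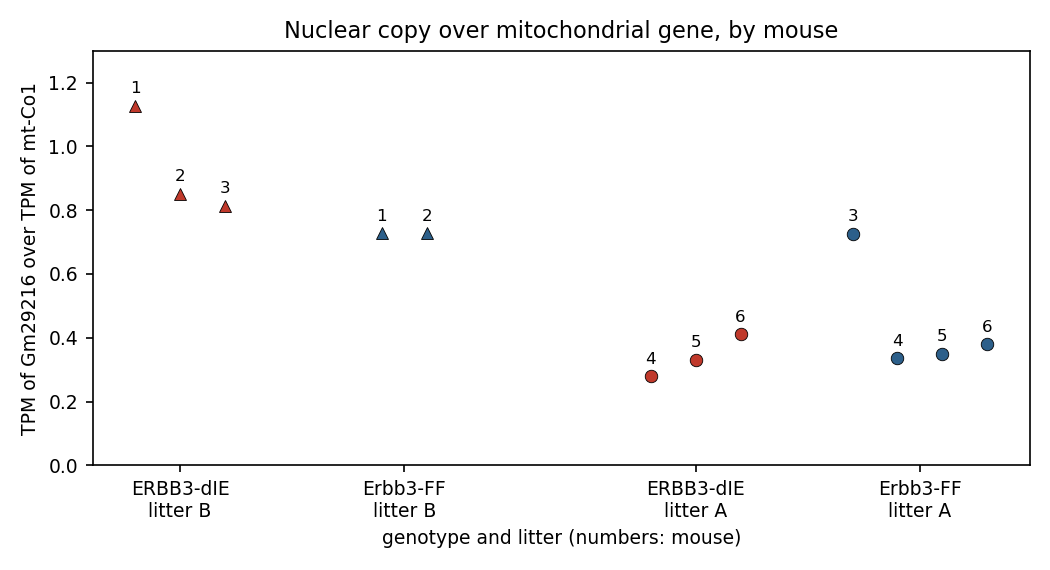
TPM of the nuclear copy Gm29216 divided by TPM of mt-Co1 for each numbered mouse, by litter and genotype. Litter B lies at 0.728 to 1.13 and litter A at 0.279 to 0.411, except Erbb3-FF mouse 3 of litter A at 0.727.

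Ratios of TPM between mitochondrial genes do not depend on the library total. Of 6 such ratios, none passed an exact 2-sided permutation test within litter, adjusted over the 6, in which 350 relabellings allow a smallest p of 0.00286. mt-Rnr2 over mt-Nd1 had 0.0773, 0.166 and 0.325 (lowest, median and highest) in ERBB3-dIE mice against 0.128, 0.314 and 0.376 in Erbb3-FF mice. Its log2 difference of −1.03 had an exact permutation p of 0.0371 (adjusted p = 0.223, exact permutation). mt-Rnr1 over mt-Rnr2 was 1.08 to 1.31 in ERBB3-dIE mice and 1.01 to 1.18 in Erbb3-FF mice, a log2 difference of 0.12 (adjusted p = 0.317, exact permutation). The ratios of mt-Atp8 to mt-Atp6, mt-Nd4l to mt-Nd4, mt-Nd6 to mt-Cytb and mt-Co1 to mt-Cytb had differences of −0.18 to −0.01 and adjusted p-values of 0.494 to 0.960 in the same exact permutation test. Of these genes mt-Atp6, mt-Nd4l, mt-Nd4 and mt-Co1 have a nuclear copy, so their ratios also depend on how reads were shared with it.

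Among nuclear genes that serve the mitochondrial genome, 1 was called between genotypes in the 4 lists described first. Of 20 tested genes of mitochondrial RNA processing and stability 1 rose and none fell (list median 0.18, beside −0.00 over all tested genes and 5.36% called). The gene was Prorp, the nuclease subunit of the RNase P that cuts the 5′ ends of mitochondrial tRNAs, at 9.23 ± 2.35 TPM in ERBB3-dIE mice and 5.73 ± 1.14 TPM in Erbb3-FF mice (SD, n = 6 each), a log2 difference of 0.67 (SE 0.17, limma adjusted p = 0.0477). No gene passed among 11 of mitochondrial transcription (median 0.17; Tfb2m, a transcription initiation factor, 0.43, adjusted p = 0.153), 15 of mitochondrial DNA replication and upkeep (0.22; Lig3, a DNA ligase, 0.62, adjusted p = 0.0810) or 12 translation factors (0.08; Oxa1l, an inner membrane insertase, 0.29, adjusted p = 0.128).

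Of 78 mitochondrial ribosomal protein genes, the partners of the rRNAs, none passed between genotypes (median 0.14). The smallest p was that of Mrps12, a small subunit protein, at 26.4 ± 6.15 TPM in ERBB3-dIE mice and 19.5 ± 2.98 TPM in Erbb3-FF mice (SD, n = 6 each; log2 difference 0.47, limma adjusted p = 0.0635). None passed among the nuclear subunits of complex I (36 tested, median 0.13), complex II (4, 0.05), complex III (9, 0.00), complex IV (12, 0.13) and the ATP synthase (18, 0.11). Their smallest p-values belonged to Ndufa5 (0.21), Sdhd (0.08), Uqcr10 (0.23), Cox7a1 (−0.83) and Atp5g2 (0.23), with limma adjusted p-values of 0.105 to 0.647.

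Lists of mitochondrial import and mass, stress response, chaperones and biogenesis gave 2 calls between genotypes among their 41 tested genes, beside 5.36% of all tested genes. Among 12 genes of import and mitochondrial mass, the citrate synthase gene Cs fell to 186 ± 19.7 TPM in ERBB3-dIE mice, against 255 ± 35.4 TPM in Erbb3-FF mice (SD, n = 6 each; −0.47, limma adjusted p = 0.0285). Among 10 genes of the integrated stress response, Ddit3, a stress-induced transcription factor, fell by 0.68 on the log2 scale (limma adjusted p = 0.0292). None of 11 chaperones and proteases passed (median 0.13; Htra2, 0.35, adjusted p = 0.0939), and none of 8 biogenesis regulators (−0.04; Ppargc1a, −0.35, adjusted p = 0.363).

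Between litters, 6 genes of these lists passed, a smaller share of their tested genes than the 8.55% called among all tested genes. Of 8 biogenesis regulators 1 passed. Ppargc1b, a coactivator of mitochondrial biogenesis, fell to 1.61 ± 0.357 TPM in litter B (SD, n = 5), against 3.08 ± 0.826 TPM in litter A (SD, n = 7; log2 difference −0.78, limma adjusted p = 0.0293). The stress response genes Trib3 (1.25), Ddit3 (0.88) and Atf4 (0.29) rose in litter B, 3 of 10 tested, with limma adjusted p-values of 0.0332, 0.0172 and 0.0411. So did Mrpl24 (0.34, adjusted p = 0.0395), 1 of 78 mitochondrial ribosomal protein genes, and Ndufa6 (0.48, adjusted p = 0.0479), 1 of 36 nuclear complex I subunits. No gene passed in the remaining lists, which held 4 to 20 tested genes each. The medians of the nuclear complex lists lay between −0.02 and 0.17, beside −0.51 for the 13 mitochondrial protein genes. Without Erbb3-FF mouse 3, when 24.3% of all tested genes were called, limma called these 6 genes and 8 of the 10 others that had the smallest p of their list. All had been picked for a low p in the fit with all libraries, so this share does not compare with that of all genes. Among the 8 were Tfb1m (−0.57), Lrpprc (−0.70), Top1mt (−0.63) and Hspd1 (−0.81), lower in litter B, with adjusted p-values of 0.00960 to 0.0113. Gfm1 (−0.72) and Tomm40 (−0.54) were lower as well, while Uqcrh (0.33) and Atp5o (0.36) were higher, with limma adjusted p-values of 0.0117 to 0.0431.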

How the data were processed

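Per the labels' protocols, RNA from scraped ileal mucosa was made into stranded mRNA libraries and read as single 75-base reads. The tools were DESeq2, Salmon 1.10.0 and CASAVA, with the GRCm39 build, per the submitters' processing notes. The annotation release is not given in the sources used here. The authors deposited TPM per library, in which depth is lost, and, per the file headers, columns of the authors' own test: baseMean (a signal), log2 fold change and its standard error, a Wald score, and p-values.

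A gene needed 1 TPM or more in 6 libraries or more, and was tested on log2(TPM + 0.5) with limma 3.58.1 (R 4.3.3, eBayes with a variance trend), with litter and genotype as terms. P-values were adjusted by Benjamini-Hochberg, with a threshold of 0.05. They measure the spread between mice, 1 library each. As there are only 2 litters, p-values between litters do not reach beyond these litters. Litter also cannot be told apart from anything its mice shared. Ratios were tested by exact permutation within litter. Steps were tested on simulated data. Nuclear copies were found with BLAST+ 2.17.0 among GENCODE M21 transcripts (GRCm38), from which the sequences come. Coordinates on GRCm39 are not used here.

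All 15 detected members are named. Per nuclear list up to 3 called genes are named by size, or else the gene of smallest p. Members, lists and tests were chosen with earlier results of these data known. Alternatives covered pseudocount, filter, scaling, terms and left-out libraries. Figures were drawn with matplotlib 3.10.9.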

Additional observations from a re-analysis of the deposited data

Results flagged for a closer look

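Of 104 groups of 6 libraries examined for a library far from the rest, 10 had one. Chance gives about 1 in 20 such groups, and the 10 share libraries and genes. Of them 9 were high values of Erbb3-FF mouse 4 against the other Erbb3-FF mice. In that mouse mt-Co1 stood at 20268 TPM (others 14892 to 16765) and mt-Atp8 at 142894 TPM (others 79816 to 103289), or 14.3% of all TPM (others 7.98% to 10.3%). The copies Gm28661 and Gm28437 stood at 20904 TPM (others 15728 to 16557) and 14925 TPM (others 12760 to 13297), and mt-Co2 summed with Gm28661 at 21060.4 TPM (others 15841 to 16636). Its share of TPM was 19.7% for the mitochondrial protein genes (others 11.9% to 14.7%), 8.01% for the nuclear copies (others 6.55% to 7.03%) and 27.9% for both with the rRNA genes (others 18.8% to 21.7%). These values lay within the range of the ERBB3-dIE mice. The remaining one was the share of the cytosolic ribosomal sequence genes Mir6236 and Rn18s-rs5 in ERBB3-dIE mouse 1, 1.62% of TPM, against 0.591% to 0.928% in the other ERBB3-dIE mice.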

How the results depend on the processing

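Read depth is unknown from TPM, and 6 mice a genotype in 2 litters limit the precision. No alternative fit turned the direction of mt-Rnr2 and mt-Rnr1 between genotypes or of mt-Nd5 between litters, but the calls often did not hold: mt-Rnr2 passed in 11 of 31 alternatives and mt-Nd5 in 13 of 26. The cause was not tested. The sums with nuclear copies, the scaling without mt-Atp8, and either the sums or litter A alone with Erbb3-FF mouse 3 left out were chosen after seeing the data. Mouse numbers did not pair the mice (correlations of 0.0739 to 0.357, and mouse 3 of each genotype is in another litter).

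Between genotypes, the counts of genes called, all then mitochondrial (676 and 1 as reported), were 216 and 0 with the mouse number as a replicate block, 6 and 0 in litter A alone (39 and 0 with Erbb3-FF mouse 3 left out), 15 and 0 in litter B alone, 350 and 0 with no filter, 243 and 0 with no litter term, and 108 and 0 without ERBB3-dIE mice 4 and 5. They were 1950 and 2 in the authors' deposited table. The mitochondrial count was 0 with a pseudocount of 0.1, with median-of-ratios scaling and without Erbb3-FF mice 5 and 6. Under the block mt-Rnr2 stood at −0.88 (limma adjusted p = 0.164). Calls higher and lower were 195 and 763 when scaled without ribosomal sequence and 83 and 368 without Erbb3-FF mice 5 and 6, beside 209 and 467.

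Between litters, the counts (1078 and 1 as reported) were 245 and 0 with no filter, 7 and 0 without Erbb3-FF mice 5 and 6, and 0 and 0 by limma without ERBB3-dIE mice 4 and 5, where 2256 genes had an unadjusted p under 0.05. All genes called were 487 when scaled without mitochondrial genes and 627 when scaled without mt-Atp8, and 2 mitochondrial genes were called when summed with copies, or 6 (of 3059 genes) with Erbb3-FF mouse 3 also left out. Calls higher and lower in litter B were 343 and 144 when scaled without mitochondrial genes, 447 and 323 with median-of-ratios scaling and 678 and 453 with quantile normalization, beside 902 and 176. The interaction called 53 genes with no filter and 7 with 1 TPM in all 12 libraries.

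Genotype differences of protein genes that passed no test changed sign as follows. In litter A alone mt-Co2 was −0.051, mt-Nd5 0.27 and mt-Nd3 −0.029, and with Erbb3-FF mouse 3 left out mt-Nd5 was 0.18 and mt-Nd3 −0.00090. In litter B alone mt-Cytb was −0.18, mt-Co1 −0.35, mt-Nd1 −0.29, mt-Nd2 −0.31, mt-Nd4l −0.92, mt-Atp8 −0.22, mt-Nd6 −0.40 and mt-Nd4 −0.32. With no litter term mt-Nd1 was −0.0018, mt-Nd2 −0.045, mt-Nd4l −0.13, mt-Atp8 −0.019, mt-Nd6 −0.094 and mt-Nd4 −0.051. Without ERBB3-dIE mice 4 and 5 mt-Co2 was −0.27, mt-Cytb −0.024, mt-Co1 −0.20, mt-Nd3 −0.28, mt-Nd1 −0.11, mt-Nd2 −0.14, mt-Nd4l −0.54, mt-Atp8 −0.059, mt-Nd6 −0.36 and mt-Nd4 −0.16. Without Erbb3-FF mice 5 and 6 mt-Co2 was −0.18, mt-Nd3 −0.048, mt-Nd2 −0.0048, mt-Nd4l −0.14, mt-Atp8 −0.028, mt-Nd6 −0.0077 and mt-Nd4 −0.013. Scaled without ribosomal sequence mt-Co2 was −0.015, mt-Nd3 −0.034, mt-Nd2 −0.0022, mt-Nd4l −0.0078 and mt-Nd6 −0.028. With quantile normalization mt-Nd5 was 0.0071, mt-Co1 −0.13, mt-Nd1 −0.097, mt-Nd4l −0.066 and mt-Nd4 −0.19. mt-Nd5 was 0.0077 with median-of-ratios scaling, 0.017 scaled without mitochondrial genes and 0.0063 scaled without mt-Atp8. mt-Nd2 was −0.0088 in the authors' deposited table.

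Between litters mt-Co2 was −0.089 and mt-Nd3 −0.036 with quantile normalization. mt-Co2 was −0.034 scaled without mitochondrial genes, −0.0056 scaled without mt-Atp8 and −0.11 without Erbb3-FF mice 5 and 6. mt-Atp6 was 0.13 without ERBB3-dIE mice 4 and 5. Summed with copies mt-Co3 was −0.10 and mt-Co2 −0.38 (−0.11 and −0.41 with Erbb3-FF mouse 3 left out), and the interactions were −0.41 for mt-Atp6, −0.47 for mt-Co2 and −0.22 for mt-Nd3.

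Leaving out each library in turn gave 303 (without ERBB3-dIE mouse 5) to 797 genes and 0 to 1 mitochondrial gene called between genotypes, 101 (without ERBB3-dIE mouse 1) to 3059 (without Erbb3-FF mouse 3) and 0 to 5 between litters, and 0 to 36 (without Erbb3-FF mouse 3) in the interaction. Genotype differences ranged from −0.012 to 0.20 for mt-Atp8, −0.013 to 0.20 for mt-Co1, −0.37 to 0.26 for mt-Co2, −0.040 to 0.13 for mt-Nd2, −0.11 to 0.22 for mt-Nd3, −0.042 to 0.15 for mt-Nd4, −0.21 to 0.28 for mt-Nd4l, −0.11 to 0.14 for mt-Nd5 and −0.13 to 0.19 for mt-Nd6. Litter differences ranged from −0.13 to 0.075 for mt-Atp6, −0.25 to 0.41 for mt-Co2 and −0.0094 to 0.29 for mt-Nd3, and interactions from −0.074 to 0.36, −0.44 to 0.96 and −0.29 to 0.35 for the same genes. The log2 ratio of mt-Nd4l to mt-Nd4 ranged from −0.18 to 0.17.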
